A study of Homo sapiens with 4 samples.

Results

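The genes examined here encode the factors that start, extend and end protein synthesis on cytosolic ribosomes. They were chosen by name, as protein-coding RefSeq genes of GRCh38 whose symbols begin with EIF or EEF, together with GSPT1, GSPT2 and ETF1. This gave 74 of 20037 protein-coding genes on the autosomes and on X and Y. MTA1 peaks were read around and within them in HCT116 cells, an epithelial line of a human colorectal carcinoma. MTA1 is a subunit of the NuRD complex, which remodels nucleosomes and removes acetyl groups from histones. Formaldehyde-fixed HCT116 chromatin was used for all 4 libraries, 2 immunoprecipitated with an MTA1 antibody and 2 of input chromatin taken without antibody. The labels name no other treatment. Whether replicates were grown separately is not given, and the cells are 1 line, so the lists describe HCT116 only.

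The authors' calls form 2 lists of peaks, and each sets an MTA1 library against the input of the same number. List 1 held 32042 peaks and list 2 held 31079, of which 32003 and 30939 lay on the chromosomes used. Every peak has a score given by the authors' caller, and all scores below are those values. The lowest score was 50.0 in both lists, the median was 64.1 in list 1 and 60.6 in list 2 on the chromosomes used, and ranks count from the best-scoring peak of a list. The lists hold no read counts, so depth is unknown, and the cell line could not be checked against marker genes. Only 1 list stands for each replicate, so no spread between replicates can be given. Counts are therefore descriptions, set beside the same count over all protein-coding genes, and no test was made. The genes were proposed with results for these lists in view, GSPT1 among them.

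In eukaryotes, eIF2 carries the initiator transfer RNA to the small ribosomal subunit as a ternary complex with GTP, eIF2B reloads eIF2 with GTP, and eIF2α kinases block that reloading under stress. eIF3 organises the small subunit, and the eIF4 factors bring it to the capped end of a messenger RNA. Elongation factors then deliver transfer RNAs and move the ribosome along, until the termination factors eRF1 (ETF1) and eRF3 (GSPT1 or GSPT2) release the finished chain.

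The sequences before the start sites of the genes with the best-scoring end peaks come first. Shown are the 250 bases before the RefSeq start site (GRCh38.p14) of 7 genes, each read 5′ to 3′ on the strand of the gene. They are the genes with a list 1 peak at an end in the best-scoring 10% of that list, less EIF2S2, which had no entry, and EIF4E3, whose window lies in the gene GPR27. The positions are chr16:11915957-11916206 (minus strand) for GSPT1, chr11:66002158-66002407 (minus) for EIF1AD, chr2:99337139-99337388 (plus) for EIF5B, chr1:206612466-206612715 (minus) for EIF2D, chr2:27370339-27370588 (minus) for EIF2B4, chr3:170908638-170908887 (minus) for EIF5A2 and chr3:150546537-150546786 (plus) for EIF2A. All 250 bases of each window lay in list 1 peaks, and those of GSPT1 alone also lay in a list 2 peak. The genes were picked for list 1 end peaks, and the start with most bases in list 1 peaks was printed. Cover by list 1 thus largely follows from the choice. For EIF5B the window lay in the weaker of its 2 peaks (93.03, rank 5086) and not in the one of 184.92 that brought it in. The GSPT1 window lies before the inner of its RefSeq starts and after the outer one, and exons were not read here. Capitals mark exact matches on either strand to 4 motifs. These are the E-box, spelled CACGTG, the GC box, spelled GGGCGG, the CCAAT box, searched by those letters, and the ETS motif, spelled CCGGAAG. No matches shared a base. The other motifs searched had no match in these windows. They are the NRF1 motif, spelled GCATGCGC, the YY1 motif, spelled AAGATGGCG, the TATA box, spelled TATAAA, the AP-1 motif, spelled TGANTCA, and the CRE, spelled TGACGTCA.
GSPT1: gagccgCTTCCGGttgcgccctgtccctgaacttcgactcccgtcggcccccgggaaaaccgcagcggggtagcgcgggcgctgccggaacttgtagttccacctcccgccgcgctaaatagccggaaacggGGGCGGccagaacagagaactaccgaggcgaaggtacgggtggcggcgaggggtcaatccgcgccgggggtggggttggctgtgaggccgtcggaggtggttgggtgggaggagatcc
EIF1AD: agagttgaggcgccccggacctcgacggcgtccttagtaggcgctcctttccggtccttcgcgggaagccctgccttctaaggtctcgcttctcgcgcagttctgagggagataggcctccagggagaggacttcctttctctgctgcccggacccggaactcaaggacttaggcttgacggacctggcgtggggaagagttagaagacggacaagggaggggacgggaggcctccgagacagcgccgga
EIF5B: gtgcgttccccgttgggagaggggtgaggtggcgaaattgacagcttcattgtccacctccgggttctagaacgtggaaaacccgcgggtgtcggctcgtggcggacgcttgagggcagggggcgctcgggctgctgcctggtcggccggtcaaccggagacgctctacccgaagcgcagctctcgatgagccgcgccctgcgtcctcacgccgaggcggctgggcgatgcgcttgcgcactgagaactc
EIF2D: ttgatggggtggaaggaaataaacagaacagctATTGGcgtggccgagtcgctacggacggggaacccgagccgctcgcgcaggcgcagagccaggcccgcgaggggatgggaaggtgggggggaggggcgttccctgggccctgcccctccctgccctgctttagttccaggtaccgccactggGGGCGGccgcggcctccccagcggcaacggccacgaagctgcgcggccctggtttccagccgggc
EIF2B4: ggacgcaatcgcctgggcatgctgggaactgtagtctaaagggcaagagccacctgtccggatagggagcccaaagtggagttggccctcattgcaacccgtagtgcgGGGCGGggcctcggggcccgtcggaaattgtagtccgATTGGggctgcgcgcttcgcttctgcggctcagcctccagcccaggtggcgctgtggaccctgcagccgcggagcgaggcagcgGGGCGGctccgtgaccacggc
EIF5A2: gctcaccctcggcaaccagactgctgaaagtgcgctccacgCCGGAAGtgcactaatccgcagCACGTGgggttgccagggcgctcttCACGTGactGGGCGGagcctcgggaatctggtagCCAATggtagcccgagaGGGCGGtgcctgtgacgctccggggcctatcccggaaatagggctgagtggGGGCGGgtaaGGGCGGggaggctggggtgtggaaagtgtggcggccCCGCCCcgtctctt
EIF2A: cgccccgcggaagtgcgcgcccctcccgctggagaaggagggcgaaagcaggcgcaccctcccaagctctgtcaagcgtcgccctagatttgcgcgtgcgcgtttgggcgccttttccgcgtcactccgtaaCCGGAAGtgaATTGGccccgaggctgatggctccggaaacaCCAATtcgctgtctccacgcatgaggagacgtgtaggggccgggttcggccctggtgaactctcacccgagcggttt

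The GC content of these windows ran from 63.2% in EIF1AD to 70.4% in EIF2D, and each held between 20 and 29 CpG pairs. EIF5A2, a paralogue of the elongation and termination factor eIF5A, had 9 matches, of which 5 were GC boxes and 2 were E-boxes. GSPT1 had an ETS match and a GC box. EIF1AD and EIF5B had none. A match describes letters only, and the lists do not resolve which bases MTA1 met.

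GSPT1, the eRF3 gene expressed in most tissues, was the only member with a region found in both replicates. Its list 1 peak spanned chr16:11915300-11916582, scored 446.49 and ranked 26 of 32003. Its list 2 peak spanned chr16:11915727-11916281, scored 148.18 and ranked 169 of 30939. The list 2 peak lay wholly within the list 1 peak, and its width was 43.3% of it. The midpoints were 713 and 650 bp downstream of the annotated 5′ end of the gene. A second RefSeq start lies 698 bp inside that end, and the midpoints were 15 bp after it in list 1 and 48 bp before it in list 2. The other termination genes differed from GSPT1. GSPT2, the second eRF3 gene on chromosome X, had no peak of either list, and ETF1 had none at its ends and 3 list 2 peaks inside. In all, 1 of 74 members held a shared region at an end (1.35%, 95% Wilson interval 0.239 to 7.27%), against 2.0% of all protein-coding genes. The overlapped share of list 1 peaks at member ends was 1 of 26 (3.85%), beside 7.39% of the 4668 list 1 peaks at ends of any protein-coding gene. These intervals cover counting error alone.

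List 1 peaks lay within 1000 bp of an annotated end of 24 of 74 members (32.4%, 95% Wilson interval 22.9 to 43.7%), beside 24.3% of all protein-coding genes. For list 2 the count was 6 of 74 (8.11%, 3.77 to 16.6%), beside 6.28%. Together 26 members had a peak of either list at an end (35.1%, against 28.0% of all genes). The shares of all genes lay within both intervals, and each class below holds few members.

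**Figure D1:**
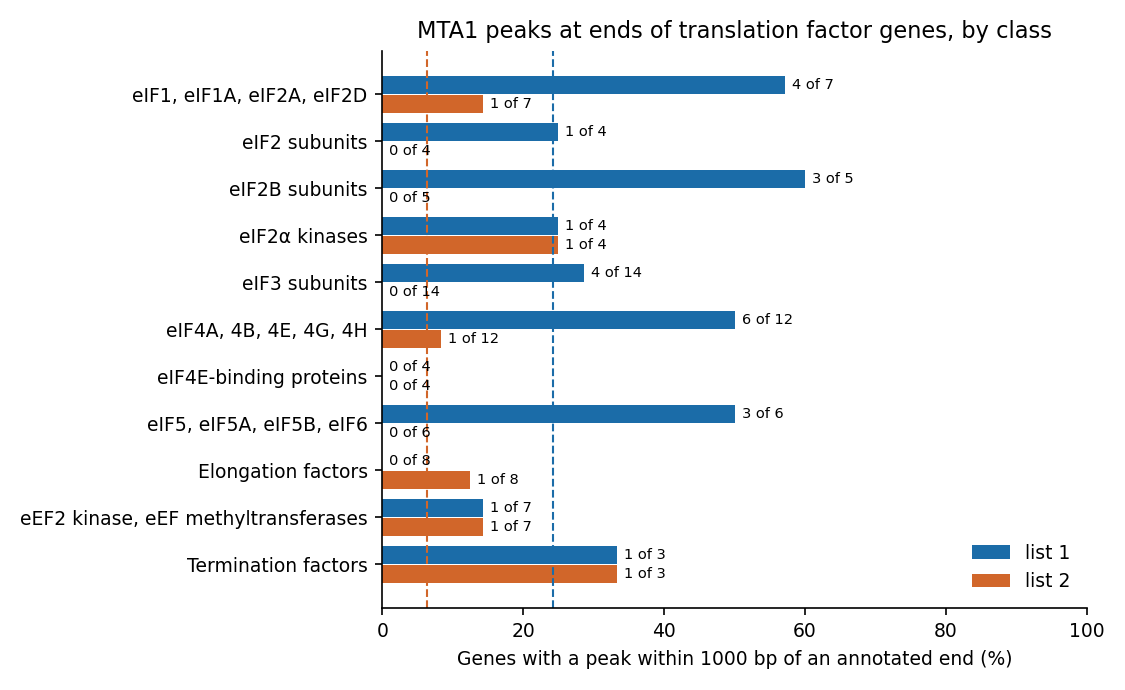
Share of genes in each class with a peak midpoint within 1000 bp of an annotated end (x axis, percent), for list 1 and list 2, with counts beside the bars and dashed lines at the share of all protein-coding genes (24.3% and 6.28%). List 1 bars range from 0 of 8 elongation factors and 0 of 4 eIF4E-binding proteins to 3 of 5 eIF2B subunits.

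Among genes for start-site selection and transfer RNA delivery, list 1 peaks lay at ends of 4 of 7. EIF1AD, which encodes a protein with an eIF1A-like domain, had the second-highest member score, 273.04 (rank 110), in a peak centred 120 bp before its 5′ end. EIF2D, a non-canonical delivery and recycling factor, scored 176.08 (rank 487), with its midpoint 61 bp after the 5′ end. EIF2A, a separate initiation factor and no subunit of eIF2, scored 108.23, but the peak midpoint lay nearer to SERP1 (112 bp against 403 bp). EIF1B, a paralogue of EIF1, scored 58.65. EIF1, EIF1AX and EIF1AY had no peak of either list.

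Of the 4 eIF2 subunit genes, EIF2S2, the β subunit, had a list 1 peak at chr20:34111913-34112813 with a score of 196.02 (rank 306), 120 bp from its upper-coordinate end, and EIF2S1, EIF2S3 and EIF2S3B had none at an end. The exchange factor that recycles eIF2 had peaks at 3 of its 5 genes. EIF2B4, the δ subunit, scored 158.41 in a list 1 peak of 1509 bp, whose midpoint was nearer to SNX17 (121 bp against 399 bp). EIF2B3, the γ subunit, scored 97.46 and EIF2B1, the α subunit, 65.15. EIF2B2 and EIF2B5 had no peak of either list. Among the 4 eIF2α kinases, EIF2AK1, the haem-regulated kinase, had a list 1 peak of 52.78 and a list 2 peak of 53.6 at its upper-coordinate end. These peaks did not meet, and 144 bp separated them. Both scores were close to the lowest in the lists.

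At the ends of 14 eIF3 subunit genes, list 1 marked 4 and list 2 marked 0. EIF3B, a scaffold subunit that binds RNA, scored 77.49, with the peak midpoint 638 bp from its annotated 5′ end but 103 bp from an inner RefSeq start, and 227 bp from an end of SNX8. EIF3H scored 75.58, and its peak was nearer to UTP23 (88 bp against 238 bp). EIF3G, a subunit with an RNA recognition motif, scored 64.81, and EIF3K had a peak at each end, with 61.27 at the 5′ end and 62.73 at the 3′ end. EIF3C, EIF3CL, EIF3F, EIF3L and EIF3M had no peak of either list. EIF3C and EIF3CL are near-identical copies, where reads cannot be placed reliably, so the absence of peaks there is uncertain.

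The cap-binding, helicase and scaffold genes had list 1 peaks at 6 of 12 ends. All 3 scaffold genes were among them, with EIF4G2, which lacks the cap-binding arm, at 62.16, EIF4G3 at 60.09 and EIF4G1 at 54.29, the last at its 3′ end. None of these 3 peaks was in the better-scoring 50% of list 1. With a window of 500 bp, EIF4G2 and EIF4G3 also dropped out. The cap-binding paralogues EIF4E3 (112.71), EIF4E2 (80.47) and EIF4E1B (80.17) each had a peak, whereas EIF4E itself had none at an end. The EIF4E2 peak was nearer to TIGD1 (44 bp against 88 bp) and the EIF4E1B peak to SNCB (201 bp against 342 bp). EIF4A1, EIF4A2 and EIF4A3, the RNA helicase genes, had no peak of either list, and 0 of 4 genes for proteins that bind eIF4E had a peak at an end. Of these, EIF4EBP1, EIF4EBP2 and EIF4EBP3 had no peak at all.

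For subunit joining, eIF5A and eIF6, 3 of 6 genes carried list 1 peaks at an end. EIF5B, the GTPase that joins the ribosomal subunits, had 2 list 1 peaks there. The stronger, with 184.92 (rank 400), was nearer to TXNDC9 (232 bp against 824 bp), and the weaker, with 93.03, was centred 100 bp after the 5′ end of EIF5B. EIF5A2 scored 138.99 and EIF5, the GTPase activator of eIF2, 75.34. EIF5A, EIF5AL1 and EIF6 had no peak of either list.

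Elongation factor genes had 0 of 8 list 1 peaks at an end. EEF1A1, which delivers transfer RNAs, EEF1B2, EEF1D and EEF1G, which form its exchange complex, had no peak of either list. EEFSEC, the elongation factor for selenocysteine, had a list 2 peak of 55.74 centred 42 bp before its 5′ end. Among the kinase and methyltransferase genes that act on elongation factors, EEF2K had a list 2 peak of 50.75 and EEF1AKMT2 a list 1 peak of 56.64. EEF1AKMT3, EEF1AKMT4 and EEF2KMT had no peak of either list. Across all classes, 28 of 74 members had no peak at an end or inside (37.8%, 95% Wilson interval 27.6 to 49.2%), beside 38.2% of all protein-coding genes.

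**Figure D2:**
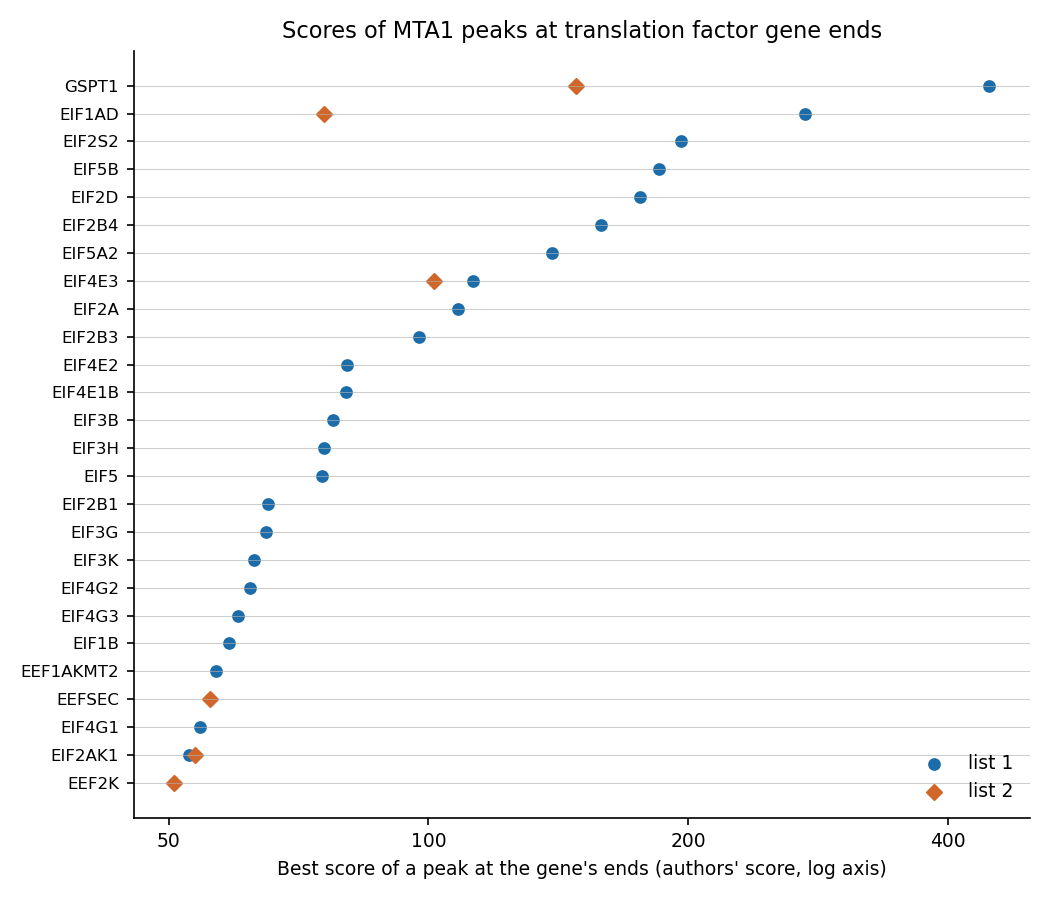
Best score of a peak at the ends of each of the 26 members with 1 (x axis, the authors' score, log axis), circles for list 1 and diamonds for list 2. GSPT1 has the highest score in both lists, 446.49 and 148.18, and 4 members carry both symbols.

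Scores at member ends ran from 52.78 to 446.49 in list 1, with a median of 78.8 over 26 peaks, beside 71.7 over the 4668 list 1 peaks at ends of all protein-coding genes. In list 1, 9 of the 26 (34.6%) were in the best-scoring 10% of the list, against 20.8% of the 4668. In list 2 the 7 peaks had a median of 56.2, beside 62.6 over 1174 peaks at gene ends. At member ends, list 2 scores above 100 were found at GSPT1 and EIF4E3 only.

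Peaks of both lists at an end were found for 4 of 74 members (5.41%, 95% Wilson interval 2.12 to 13.1%), beside 2.61% of all protein-coding genes. Besides GSPT1 and EIF2AK1 they were EIF4E3 and EIF1AD. At EIF4E3 the list 1 peak (112.71) ended 97 bp from the list 2 peak (101.48, rank 1154). The list 1 peak was centred 255 bp before the 5′ end and the list 2 peak 532 bp after it, and both midpoints lay in GPR27, a gene that overlaps this stretch. At EIF1AD the list 1 peak was 349 bp from a list 2 peak of 56.24, and a further list 2 peak of 75.74 lay at the 3′ end. So in 3 of the 4 genes (75.0%) the end peaks of the replicates did not overlap. Among all 522 protein-coding genes with end peaks of both lists this was so in 153 (29.3%). With only 4 members the shares cannot be compared.

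**Figure D3:**
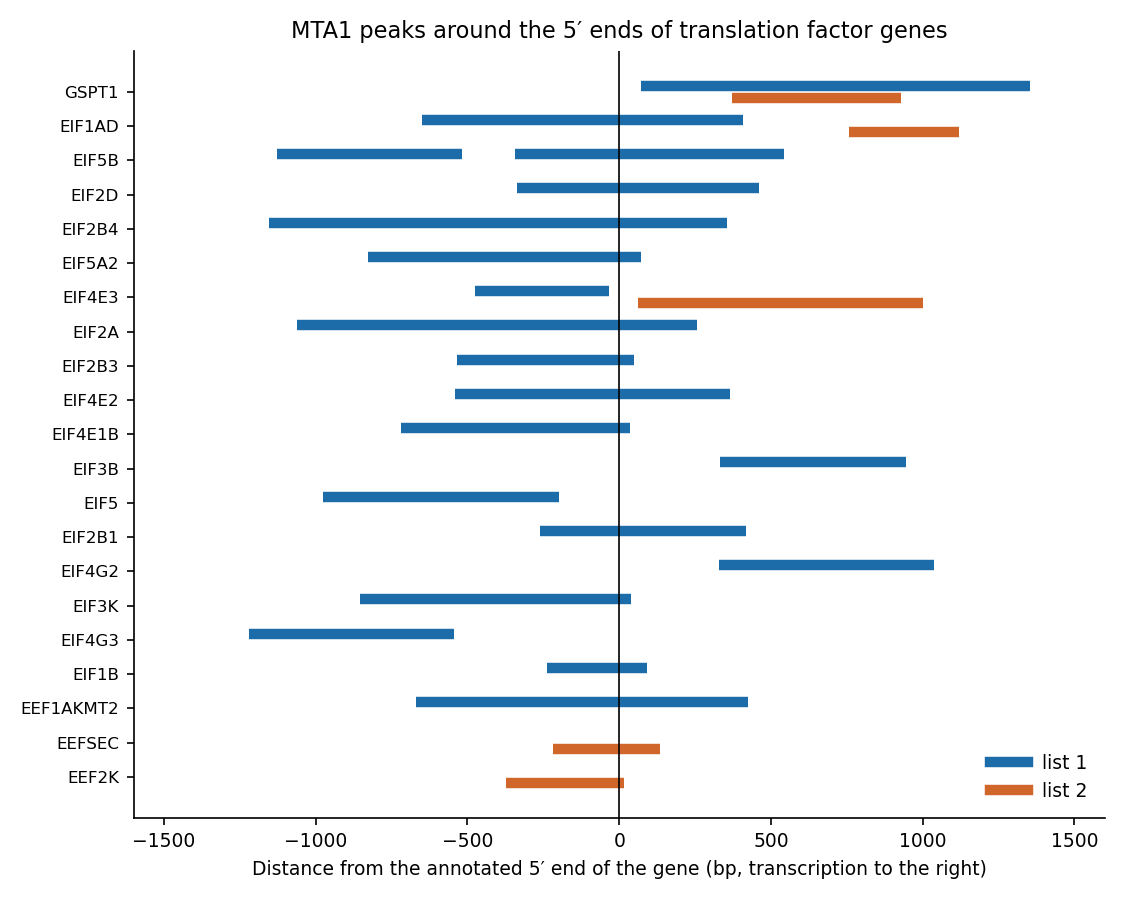
Extent of each peak (bars) around the annotated 5′ end (x axis, bp, transcription to the right) for members with a known strand and a peak midpoint within 1000 bp of that end, ordered by best score. The list 2 bar of GSPT1 lies under its list 1 bar, while those of EIF1AD and EIF4E3 lie beside theirs.

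A strand was known for 60 members. Of 22 list 1 peaks at ends of such genes, 20 were nearest to the 5′ end and 2, at EIF3K and EIF4G1, to the 3′ end. Of those 20, 14 had their midpoint upstream of the annotated end. The same shares over list 1 peaks at ends of all protein-coding genes with a strand are not given here. At the 5′ end alone, 19 of 60 members had a list 1 peak (31.7%, 95% Wilson interval 21.3 to 44.2%), against 20.1% of 15842 protein-coding genes with a strand, and 5 of 60 had a list 2 peak (8.33%, 3.61 to 18.1%), against 4.62%. A shared region was there in 1 of 60 (1.67%), against 1.79%. The median distance from a list 1 midpoint to the member's end was 345.5 bp. Just inside the line of 1000 bp were EIF4G3 (882 bp) and EIF3G (841 bp) in list 1, and just outside it were EEF1AKMT4 (1245 bp) and EEF1AKMT1 (1254 bp). In list 2 the nearest outside were EIF3H (1603 bp) and EEF1A1 (1763 bp).

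Many of these ends lie close to another gene. Of the 26 list 1 peaks, 11 also had their midpoint within 1000 bp of an end of another protein-coding gene, and 7 were nearer to that gene than to the member by annotated ends. In list 2 this was so for 1 of 7 peaks, at EIF4E3. By inner RefSeq starts of the member this turns for EIF3B in list 1 (103 bp, SNX8 at 227 bp) and for EIF4E3 in list 2 (257 bp, GPR27 at 386 bp). With peaks nearer to another gene by annotated ends left out, a choice made after the values were seen, 18 members kept a list 1 peak and 5 a list 2 peak. The same counts of neighbouring ends over peaks at ends of all protein-coding genes are not given here. A 5′ end within 1000 bp of that of a gene on the other strand was found for 6 of 20 members with a list 1 peak at an end (30.0%) and for 6 of 40 without (15.0%). Over all protein-coding genes these shares were 19.6% and 11.7%. Only genes with a known strand entered these counts, so neighbours without one were missed. EEF1AKMT4 and EEF1AKMT4-ECE2, which share a start, are both counted among the members without such a peak. Which of the neighbouring genes a peak belongs to cannot be told apart.

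Promoters of the members were rich in GC. In the 300 bases from 250 before to 50 after the start nearest to the 5′ end, median GC content was 67.2% in the 20 members with a list 1 peak at an end and a promoter sequence, and 62.0% in the 40 without. All protein-coding genes showed a similar order, with 66.3% in 3869 with such a peak and 61.3% in 11973 without. CpG pairs had medians of 29 and 23 in members, and of 27 and 20.0 in all genes. The lowest value among members with a peak was 45.3% GC and 8 CpG pairs. It was that of the upstream start of GSPT1, which the peak does not cover. The window printed above for its inner start, chosen for its cover by list 1 peaks, had 68.8% GC and 29 pairs in 250 bases. The part of GC content in the peak calls was not tested.

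**Figure D4:**
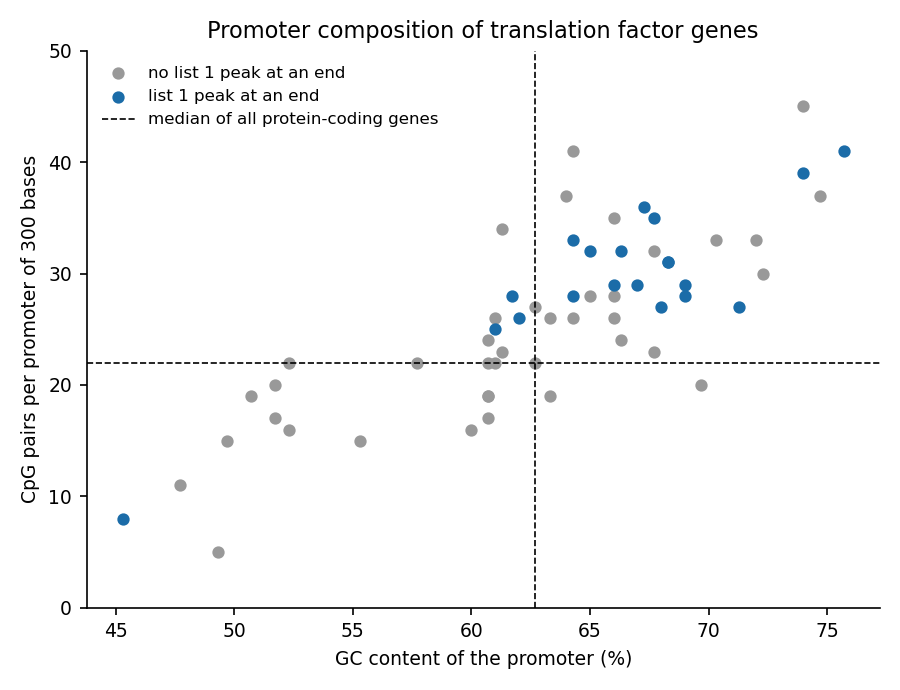
GC content (x axis, percent) and CpG pairs (y axis) of the 300-base promoter of 60 members, coloured by whether a list 1 peak lies at an end, with dashed lines at the medians of all protein-coding genes (62.7% and 22). Of the coloured points, all but the upstream start of GSPT1 lie above the CpG line.

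The choice of genes did not use their sequence. The E-box occurred in 16 of 60 member promoters (26.7%), against 8.82% of the promoters of all protein-coding genes. Its share was 27.5% in members without a list 1 peak at an end (11 of 40) and 25.0% in those with such a peak (5 of 20). EEF1AKMT4 and EEF1AKMT4-ECE2, both without such a peak, share a start. The same promoter, with an E-box, a GC box and a CCAAT box, is thus counted for each. The GC box occurred in 46 of 60 (76.7%, against 58.3%), the ETS motif in 16 (26.7%, against 14.2%) and the CCAAT box in 24 (40.0%, against 36.4%). TATA boxes were found in 4 (6.67%, against 9.75%), AP-1 motifs in 4 (6.67%, against 5.7%), YY1 motifs in 3 (5.0%, against 2.69%), NRF1 motifs in 2 (3.33%, against 4.28%) and the CRE in 1 (1.67%, against 2.56%).

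Inside the genes, list 2 peaks were in more members than list 1 peaks. A list 1 peak more than 1000 bp from both ends was found in 14 of 74 members (18.9%, 95% Wilson interval 11.6 to 29.3%), against 35.0% of all protein-coding genes, and a list 2 peak in 30 (40.5%, 30.1 to 51.9%), against 33.4%. Per length, members held 9.21 list 1 peaks per Mb of interior, beside 13.4 in all protein-coding genes, and 23.8 list 2 peaks per Mb, beside 12.5. No shared region lay inside a member, where 2.34% of all genes had 1, and 0 of 74 allows a share of up to 4.93% (upper bound of the Wilson interval). A peak of either list lay inside 37 of 74 (50.0%, against 50.6%). In 7 members both lists had a peak inside (9.46%, against 17.8%), and none of these peaks overlapped. Among all protein-coding genes, 3571 had peaks of both lists inside and 468 had a shared region inside. Overlap inside genes was thus uncommon in all genes too.

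**Figure D5:**
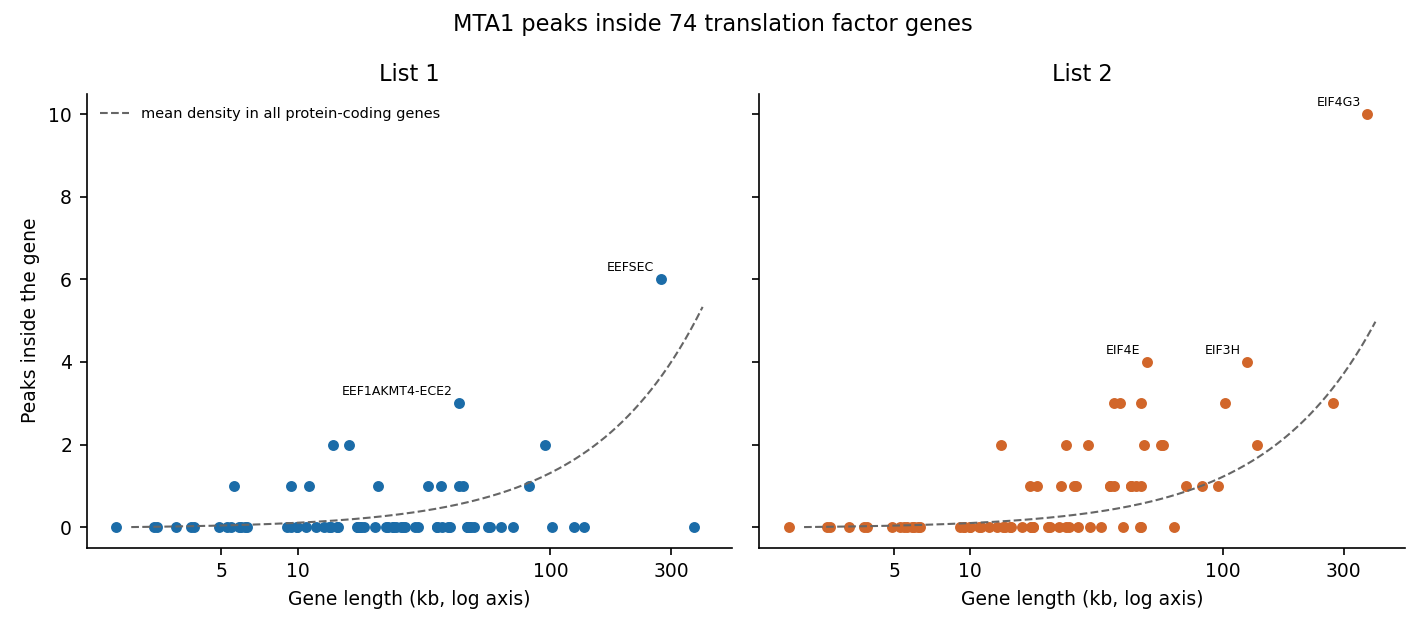
Number of peaks more than 1000 bp inside each of the 74 members (y axis) against gene length (x axis, kb, log axis) in list 1 and list 2, with a dashed line for the mean density of all protein-coding genes (13.4 and 12.5 per Mb). In list 2, EIF4G3 stands highest with 10 peaks, and in list 1 EEFSEC with 6.

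EIF4G3, at 370.6 kb the longest member, held 10 list 2 peaks and 0 list 1 peaks. Their scores ran from 54.44 to 92.29 with a median of 62.9, and they were spread over 318.0 kb of the gene. Without EIF4G3 the other 73 members still held 23.2 list 2 peaks per Mb. EIF4E, the cap-binding protein gene, and EIF3H held 4 list 2 peaks each, with best scores of 73.15 and 81.96. EEFSEC, EIF2A, EIF2AK4, EIF3A and ETF1 held 3 each. The best-scoring list 2 peaks inside members were those of EEF1AKMT1, a lysine methyltransferase gene (108.85, rank 743), of EIF2AK4, the kinase GCN2 (108.21, rank 762), and of EEF1E1, a component of the synthetase complex (105.57, rank 902). All 4 eIF2α kinase genes and 3 of 4 eIF2 subunit genes held a list 2 peak inside, and 0 of 6 genes of the eIF5, eIF5A, eIF5B and eIF6 class did. Over all protein-coding genes the share was 33.4%. The interiors of these classes differed in length, with 0.2596, 0.08322 and 0.09819 Mb in the same order. Per Mb they held 27.0, 48.1 and 0.0 list 2 peaks, beside 23.8 in all members. The part of gene length in these counts was not tested.

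Of the 24 list 1 peaks inside members, 8 lay in elongation factor genes and 5 in genes for the kinase and methyltransferases of those factors. EEFSEC, of 272.7 kb, held 6, with scores from 62.45 to 151.9, and EEF1A2, the eEF1A gene of brain and muscle, held 1 peak, 2561 bp wide, with the best interior score, 158.49 (rank 751). EEF1AKMT4-ECE2, a read-through transcript of neighbouring genes, held 3, all beyond the end of EEF1AKMT4. The midpoints of those scoring 75.34 and 95.78 lay 791 and 1226 bp from an end of CAMK2N2. That of the peak scoring 78.96 lay 5208 bp from an end of ECE2. EIF3I, EIF4E1B and EIF4E3 held 2 each. Elongation factors thus had 23.1 list 1 peaks per Mb inside, although 0 of 8 had such a peak at an end. EEFSEC made up 0.2707 of their 0.347 Mb of interior and alone had 22.2 per Mb, so it did not raise this density. Without EEFSEC the much shorter remaining interiors held 2 list 1 peaks, in EEF1A2 and EEF2.

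Further genes of translation were read in the same way from a list of 79 genes found in the RefSeq table. A list 1 peak lay at an end of 24 of 79 (30.4%, 95% Wilson interval 21.3 to 41.2%, against 24.3% of all protein-coding genes), a list 2 peak at 6 (7.59%, against 6.28%) and a shared region at 3 (3.8%, against 2.0%). Inside these genes a list 1 peak was found in 28 of 79 (35.4%, against 35.0%) and a list 2 peak in 35 (44.3%, against 33.4%), where the members had 18.9% and 40.5%. The shared regions were at PABPC1, the poly(A)-binding protein gene (165.32 in list 1, and 105.31 as best list 2 score), at GFM1, a mitochondrial elongation factor gene (184.97 and 85.48), and at DPH7, an enzyme gene of the diphthamide modification of eEF2 (136.64 and 100.7). Other list 1 peaks in the best-scoring 10% were at RPTOR, a subunit of the mTOR kinase complex (198.85), NCBP1, of the nuclear cap-binding complex (142.05), PAIP1 (133.83), KARS1 (125.41), PABPC4 (123.99), GARS1 (122.35) and DPH2 (115.02). By group, genes with a list 1 peak at an end were 7 of 15 other initiation factors and 6 of 23 cytosolic aminoacyl-tRNA synthetase genes. They were 4 of 13 genes that control initiation and elongation and 3 of 12 mitochondrial translation factors. They were also 2 of 9 hypusine and diphthamide enzymes and 2 of 7 rescue and termination partners.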

How the data were processed

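MTA1 chromatin immunoprecipitation and input libraries of HCT116 cells were made by the authors (2 each). The submitters' processing notes name cutadapt, Bowtie2 and the build GRCh38. Peak names in the deposited lists have the form that MACS writes, and its version and settings are not stated. Each deposited list gives positions and, as the authors' own value, a score per peak on a scale that is not stated, so scores were compared by rank within a list, and values of both lists are only set side by side.

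Gene ends came from a RefSeq table (GRCh38.p14). Strands, starts and promoter sequences came from a RefSeq promoter table, which held 60 of 74 members and 15842 of 20037 protein-coding genes. The start nearest to the 5′ end was used for composition and motifs, and the start with most bases in list 1 peaks for printed sequences. A peak is at an end when its midpoint is within 1000 bp of either end, and inside when it is in the gene and more than 1000 bp from both. Shared regions merge peaks that overlap by at least 1 bp. Positions are 1-based. Shares have 95% Wilson intervals (Python 3.11.15, scipy 1.17.1). Members and lists were chosen with earlier results of these data known. Of 80 further translation genes listed, 1 was not used here. Named were members with a peak at an end, those with most or best-scoring interior peaks, those without a peak where a class had 5 or fewer, and other translation genes with a shared region or a list 1 peak in the best-scoring 10%. Members named for their best-scoring interior peak, and EEF2, were chosen after their values were seen. Assignment was run on simulated data, and the planted genes were recovered. The planted peaks lay within the window that the assignment uses, so this checks the code only and not the real peaks. Alternatives were windows of 500 and 3000 bp, any overlap, better-scoring peaks, 5′ ends alone, overlap of at least 50%, and each list alone.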

Additional observations from a re-analysis of the deposited data

How the results depend on the processing

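No paired analysis was possible because each replicate number has 1 list of peaks, already set against its own input, and no value per library. The list 1 count at ends (24 members) stayed between 17 and 28 under all alternatives run. Shares of members against all genes were 24.3% and 16.7% with 500 bp, 37.8% and 35.3% with 3000 bp and 35.1% and 28.1% with any overlap, and with the better-scoring 50% they were 17 of 74 members and 16.4% of all genes. Of these the gap was smallest with 3000 bp. The list 2 count (6) was 12 with a window of 3000 bp, where 15.0% of all genes had such a peak (members 16.2%). With the better-scoring 50% of peaks it was 3, where 3.53% of all genes had such a peak (members 4.05%). Members with both lists at an end (4) were 2 with a window of 500 bp, and the share of all genes at that setting is not given here. The shared region at GSPT1 was lost with a window of 500 bp (0 members), since its midpoint is over 500 bp from the annotated end, and where at least 50% of each peak had to be covered (0), since the list 2 peak covers 43.3% of the list 1 peak. For shared regions at ends, leaving out a replicate leaves the other list alone, with 6 members without replicate 1 and 24 without replicate 2. Inside genes, the list 1 count (14) was 8 with the better-scoring 50%. The share of all genes at that setting is not given here, so the drop cannot be read as particular to the members. Shared regions inside (0) were 1 with any overlap, the region of GSPT1, and each list alone gave 30 without replicate 1 and 14 without replicate 2. Of 30 pairs of a gene and a list with a peak at an end, 22 remained with 500 bp, 30 with 3000 bp, 20 with the better-scoring 50% and 24 at 5′ ends alone, where 5 genes without a known strand or with a peak at the 3′ end dropped out. Depth is unknown, so a missing peak does not show absence of MTA1.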

Other observations

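The members lie on 21 chromosomes. Chromosome 3 held most of them, 10, of which 5 had a list 1 peak at an end (EIF1B, EIF2A, EIF4E3, EIF4G1 and EIF5A2), where 25.4% of all 1066 protein-coding genes of that chromosome did. The 4 members on chromosome 17, EIF1, EIF4A1, EIF4A3 and EIF5A, had no peak of either list at an end or inside, as had 36.2% of the 1169 protein-coding genes there. EIF1AX, EIF2S3 and GSPT2 on chromosome X and EIF1AY on Y also had none, and there 82.5% of 848 and all 63 protein-coding genes had none.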
